A study of Homo sapiens with 12 samples.

Results

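The 9q34 genes described here are 53 protein-coding genes from the end of the long arm of human chromosome 9, between 128 and 134 Mb of GRCh38, out of 54261 genes in the deposited total RNA table. They were named one by one for this description from the protein-coding genes of that interval. LCN2, LRRC8A and LAMC3 were left out, and the interval was picked because an earlier look at the same libraries had shown lower levels along this arm in the drug-resistant line. The genes were thus selected on the measured difference in total RNA between the lines. Their own fold changes, and their calls in a test run over all genes, are given as a description only. Positions in the RefSeq gene table for GRCh38.p14 placed all 53 in the interval, which held 100 protein-coding genes of the deposited table. Of the 53, 52 passed the filter on low counts that left 17511 genes for testing.

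HCT116oxR was compared with parental HCT116, a human colorectal carcinoma line. HCT116oxR was derived from it by oxaliplatin, a platinum drug that forms DNA adducts, at 0.1, 0.5, 1.0 and 2 µmol/L in turn and then at 5 µmol/L for 1 year. Parental cells are labelled as the control. From each line 3 libraries of total RNA and 3 of small RNA were made, 12 in all, from cultures that the labels describe as separately grown and harvested. There is 1 resistant line, so the spread measured is that between cultures and not between independently selected lines.

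Band 9q34 is gene-dense, and most of its genes are housekeeping genes that work in unrelated processes. Among them are parts of the nuclear pore, enzymes that make the dolichol carrier of N-glycans, factors of RNA polymerase III, and TSC1, a growth-restraining subunit of the TSC complex upstream of mTORC1. ABL1, the kinase gene of the BCR-ABL fusion of chronic myeloid leukaemia, lies here, as does ASS1, the urea cycle enzyme that joins citrulline to aspartate. The interval also holds hairpins of miR-199b and miR-219, whose mature forms were measured in the small RNA libraries.

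The total RNA libraries held 11950069 to 13558077 counts and the small RNA libraries 16089595 to 18147051. Markers of the labelled cell type were present, the 8 epithelial markers summing to 3698 to 3780 CPM (counts scaled to the library total with TMM factors) in HCT116oxR and 3058 to 3169 CPM in parental cells, although VIL1 and LGR5 were at or near 0. The 5 fibroblast markers summed to 46.4 to 51.7 CPM in HCT116oxR and 54.8 to 67.5 CPM in parental cells, and the 4 endothelial markers to 3.02 to 3.98 CPM in HCT116oxR and 1.65 to 2.42 CPM in parental cells. The 5 leukocyte markers summed to at most 0.522 CPM in HCT116oxR and 0.502 CPM in parental cells, with PTPRC and CD3E at 0 in every library. In bulk RNA, fewer cells making a transcript and less of it per cell cannot be told apart.

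Sequences of 2 kinds bear on the results below. Of the miRNAs made from hairpins in the interval and tested, the mature sequences held by RefSeq (GRCh38.p14) are shown with the seed, bases 2 to 8, in capitals. MiR-199a-3p and miR-199a-5p from chromosome 1 stand beside them, because miR-199a-3p has the same 22 letters as miR-199b-3p. MiR-199b-5p and miR-219b-3p are named only. No other pair shown shares a seed.
miR-199b-3p: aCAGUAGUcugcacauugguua
miR-199a-3p: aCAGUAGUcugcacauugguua
miR-199a-5p: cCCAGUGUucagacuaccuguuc
miR-219a-5p: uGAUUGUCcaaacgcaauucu
miR-219a-2-3p: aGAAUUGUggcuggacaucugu
miR-219b-5p: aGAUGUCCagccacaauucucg
miR-6877-5p: aGGGCCGAaggguggaagcugc

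Of the 53 genes, 45 matched a promoter window in the RefSeq table (250 bases before to 50 after the start, GRCh38.p14). Windows are shown for 3 starts that face a neighbour's start on the other strand, and for ASS1, the gene with the largest positive fold change. All 4 are on the plus strand: GTF3C4 at chr9:132669785-132670084, NUP188 at chr9:128947449-128947748, GPR107 at chr9:130053656-130053955 and ASS1 at chr9:130444457-130444756. Capitals mark a match on either strand to CCGGAAG (the ETS core), GGGCGG (the SP1 GC box), CCAAT or AAGATGGC (the YY1 core).
GTF3C4: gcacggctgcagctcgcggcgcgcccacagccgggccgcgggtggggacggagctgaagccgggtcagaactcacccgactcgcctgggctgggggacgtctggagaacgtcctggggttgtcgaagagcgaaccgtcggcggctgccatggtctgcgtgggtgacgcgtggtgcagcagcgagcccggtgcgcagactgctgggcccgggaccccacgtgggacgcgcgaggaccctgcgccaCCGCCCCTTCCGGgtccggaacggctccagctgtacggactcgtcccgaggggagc
NUP188: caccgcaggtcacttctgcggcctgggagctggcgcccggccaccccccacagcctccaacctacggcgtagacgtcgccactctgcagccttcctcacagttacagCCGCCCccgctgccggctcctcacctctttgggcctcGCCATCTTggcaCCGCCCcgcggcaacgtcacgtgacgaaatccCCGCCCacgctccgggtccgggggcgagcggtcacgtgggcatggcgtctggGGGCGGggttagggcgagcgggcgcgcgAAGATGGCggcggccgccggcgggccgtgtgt
GPR107: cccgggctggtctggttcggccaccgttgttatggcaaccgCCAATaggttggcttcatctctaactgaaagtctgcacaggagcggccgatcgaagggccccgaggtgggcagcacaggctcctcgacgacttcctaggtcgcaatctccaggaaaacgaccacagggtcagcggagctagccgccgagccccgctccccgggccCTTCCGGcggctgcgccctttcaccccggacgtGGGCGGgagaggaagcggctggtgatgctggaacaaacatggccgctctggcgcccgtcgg
ASS1: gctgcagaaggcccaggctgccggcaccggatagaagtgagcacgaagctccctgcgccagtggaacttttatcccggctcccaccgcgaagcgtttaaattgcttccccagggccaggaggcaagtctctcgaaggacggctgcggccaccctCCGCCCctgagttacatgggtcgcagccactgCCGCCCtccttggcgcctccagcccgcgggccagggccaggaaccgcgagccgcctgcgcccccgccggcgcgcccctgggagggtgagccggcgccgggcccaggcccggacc

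Most of the 9q34 genes had lower levels in HCT116oxR, mostly by a modest amount. The median log2 fold change of HCT116oxR over parental cells was -0.45 over the 52 genes, a change of -26.8%, with quartiles at -0.57 and -0.26. Over all 17511 genes tested the median was -0.00. Across the 52 genes the fold changes had an SD of 0.30, against 0.77 over all genes. It was 0.67 over the 32 tested protein-coding genes of the interval that are not among the 53. Since the 53 were named with this contrast known, nothing is read from their narrower spread.

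Each culture gave much the same value. Set against the parental mean of each gene, the median difference of the 52 genes was -0.45, -0.40 and -0.39 on the log2 scale in the HCT116oxR libraries, against -0.01, -0.02 and 0.03 in the parental libraries. In the HCT116oxR libraries 46, 46 and 47 of the 52 genes lay below the parental mean, against 29, 31 and 19 in the parental libraries. Over all genes tested the median difference was 0.01 in each HCT116oxR library and 0.00 in each parental library. In the median of the 52 genes, no HCT116oxR library came near a parental one. The genes were chosen on this contrast and the parental mean was the reference. Nothing is read from this separation or from the counts below the mean. Reads of all 53 genes made up 0.442, 0.447 and 0.446% of the HCT116oxR libraries, against 0.556, 0.555 and 0.569% of the parental libraries.

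With edgeR's quasi-likelihood test at a Benjamini-Hochberg adjusted p under 0.05 over all genes, 38 of the 52 were called lower and 2, ASS1 and NCS1, were called higher. Over all genes tested, 21.8% were called lower, 22.3% higher and 44.1% in either direction. In 39 of the 52 every HCT116oxR library lay below every parental library, as did 24.8% of all genes, and in 2 every HCT116oxR library lay above, as did 25.7% of all genes. Since this contrast chose the genes, nothing is read from these counts. The remaining 12 genes were not called, and PHYHD1, related to phytanoyl-CoA dioxygenases, had too few reads to be tested, with 7, 3 and 11 counts in HCT116oxR libraries against 4, 6 and 7 in parental libraries.

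**Figure D1:**
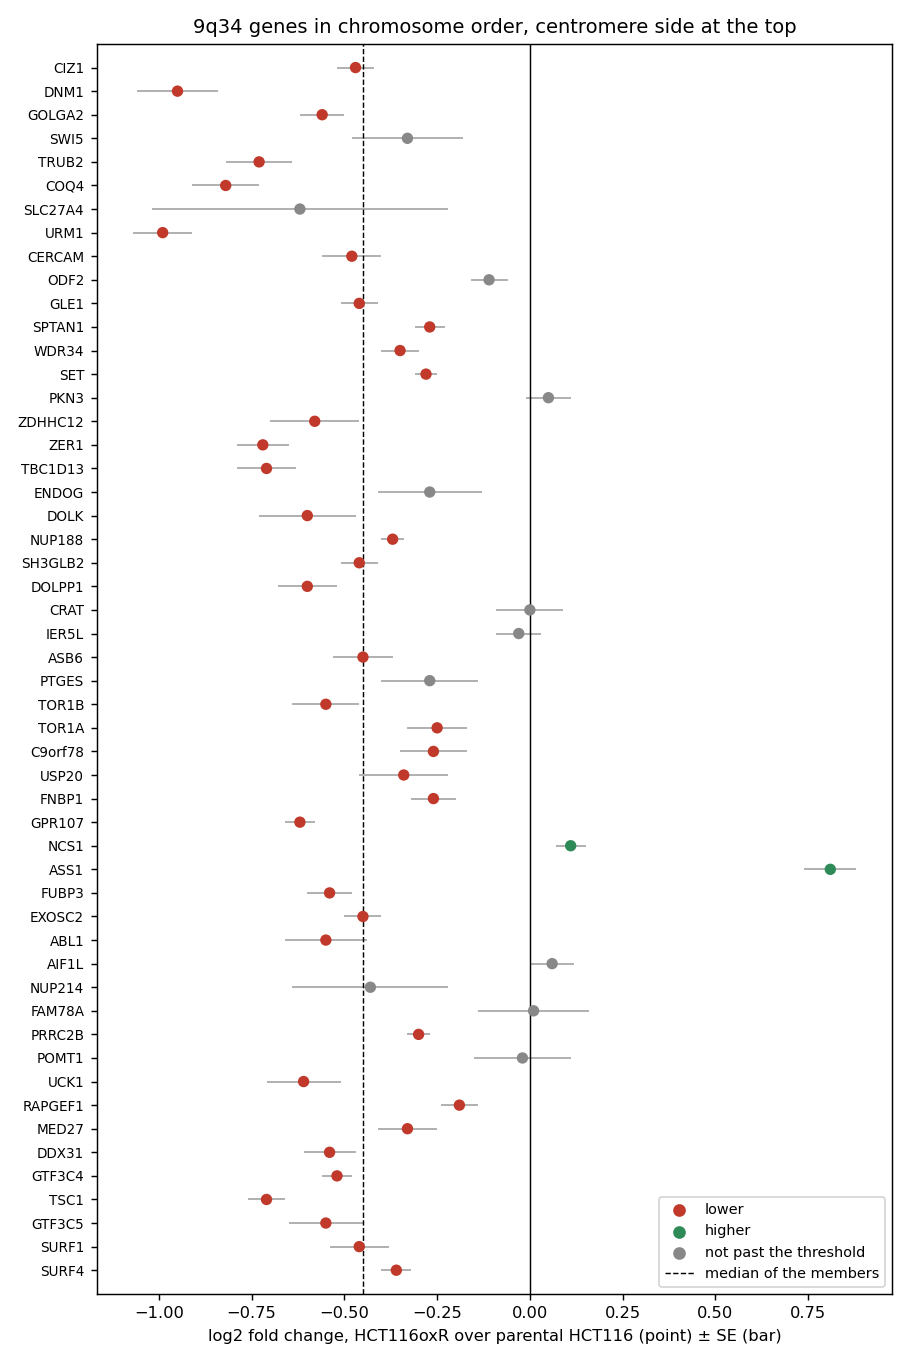
Log2 fold change of HCT116oxR over parental HCT116 for the 52 tested genes (points, with SE as bars), in chromosome order from the centromere side at the top. Most points lie left of 0 and near the median of -0.45 (dashed line), URM1 lies farthest left at -0.99 and ASS1 farthest right at 0.81.

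The shift was present along the whole interval. From 128 to 130 Mb, 24 of 32 tested genes were called lower and none higher, with a median log2 fold change of -0.45. From 130 to 132 Mb, 8 of 14 were called lower and 2 higher, with a median of -0.31 and an upper quartile of 0.01. All 6 genes from 132 to 134 Mb were called lower, with a median of -0.53. The median was -0.49 in the 18 genes with the lowest mean CPM, -0.48 in the middle 17 and -0.36 in the highest 17. Whether counting used strand is not given in the sources used here, so reads of overlapping genes may be shared. The 23 tested genes that overlap no other annotated gene had a median of -0.46, with 17 called lower and 1 higher. The 29 that overlap another had a median of -0.43, with 21 called lower and 1 higher. Of all genes tested, 21.8% were called lower and 22.3% higher. This contrast chose the genes, so the counts in each part are a description.

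The genes that modify, process or move RNA had log2 fold changes on both sides of the median of -0.45. URM1 (chr9:128371319-128392016), a ubiquitin-like sulfur carrier used to thiolate tRNA, had 30.7, 30.9 and 30.7 CPM in HCT116oxR libraries, against 58.6, 59.0 and 66.4 CPM in parental libraries. Its log2 fold change of -0.99 ± 0.08 (SE, as for each fold change below, with 3 libraries a line) was the most negative of the 52, and the lines did not overlap. TRUB2, a mitochondrial RNA pseudouridine synthase, had 25.4, 28.3 and 25.3 CPM in HCT116oxR libraries, against 39.1, 42.0 and 50.3 CPM in parental libraries (log2 fold change -0.73 ± 0.09). Here too every HCT116oxR library was below every parental one. TRUB2 overlaps LOC105376286, a lncRNA with few reads.

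The genes of the nuclear pore and of mRNA export had smaller differences. NUP188, a scaffold nucleoporin, had 357, 356 and 349 CPM in HCT116oxR libraries, against 460.3, 453 and 463 CPM in parental libraries (log2 fold change -0.37 ± 0.03). The libraries of each line lay close together and the lines were apart. GLE1, which activates the export helicase at the pore, had a log2 fold change of -0.46 ± 0.05. NUP214, a nucleoporin of the cytoplasmic face, averaged 4.64 ± 0.273 CPM in HCT116oxR and 6.26 ± 1.36 CPM in parental cells (SD, n = 3) and was not called at -0.43 ± 0.21.

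Factors that act in transcription and RNA decay were called lower. The log2 fold change was -0.52 ± 0.04 for GTF3C4 and -0.55 ± 0.10 for GTF3C5, both subunits of the RNA polymerase III factor TFIIIC. It was -0.54 ± 0.07 for DDX31, a DEAD-box helicase of the nucleolus, and -0.45 ± 0.05 for EXOSC2, a cap subunit of the RNA exosome. FUBP3, a single-strand nucleic acid binding protein, was at -0.54 ± 0.06, and the Mediator subunit MED27 at -0.33 ± 0.08.

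SET, a histone chaperone and inhibitor of the phosphatase PP2A, had 715, 689 and 703 CPM in HCT116oxR libraries, against 856, 838 and 861 CPM in parental libraries (log2 fold change -0.28 ± 0.03). PRRC2B, an RNA-binding protein of translation initiation, had 366, 368 and 383 CPM in HCT116oxR libraries, against 457, 452 and 461 CPM in parental libraries (log2 fold change -0.30 ± 0.03). In both genes the lines were apart, with small differences next to those of URM1 and TRUB2. SET has processed pseudogenes elsewhere in the genome and overlaps WDR34, and PRRC2B hosts snoRNAs, so some of their reads could be assigned either way. SWI5, a homologous recombination factor, was not called at -0.33 ± 0.15, and it overlaps GOLGA2.

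Mitochondrial and metabolic genes included ASS1, the most positive of the 52. COQ4, needed for coenzyme Q synthesis, had 21.5, 24.0 and 22.4 CPM in HCT116oxR libraries, against 35.2, 40.9 and 43.6 CPM in parental libraries (log2 fold change -0.82 ± 0.09). ASS1 (chr9:130444707-130501274) had 71.0, 78.3 and 69.1 CPM in HCT116oxR libraries, against 37.3, 48.4 and 39.7 CPM in parental libraries (log2 fold change 0.81 ± 0.07). Neither gene had overlapping lines, and ASS1 was higher in each of the 3 HCT116oxR libraries. ASS1 has many processed pseudogenes on other chromosomes, and how reads with several matches were counted is not given in the sources used here.

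UCK1, a uridine-cytidine kinase of pyrimidine salvage, had 16.2, 20.2 and 21.3 CPM in HCT116oxR libraries, against 27.5, 30.2 and 30.7 CPM in parental libraries (log2 fold change -0.61 ± 0.10), with no overlap. SLC27A4, a fatty acid transport protein, had 1.03, 1.72 and 0.98 CPM in HCT116oxR libraries, against 1.96, 1.68 and 2.10 CPM in parental libraries. Its lines overlapped, and at this level its log2 fold change of -0.62 ± 0.40 was not called. CRAT, carnitine acetyltransferase, had 33.6, 29.3 and 26.6 CPM in HCT116oxR libraries, against 28.8, 30.4 and 30.7 CPM in parental libraries (log2 fold change -0.00 ± 0.09), the smallest difference of the 52. SURF1, an assembly factor of cytochrome c oxidase, was called lower at -0.46 ± 0.08, while the mitochondrial nuclease ENDOG at -0.27 ± 0.14 and the prostaglandin E synthase PTGES at -0.27 ± 0.13 were not called.

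Genes of the endoplasmic reticulum and Golgi were mostly lower. DOLK, the kinase that makes dolichyl phosphate, had 11.2, 11.6 and 10.4 CPM in HCT116oxR libraries, against 16.2, 17.6 and 16.8 CPM in parental libraries (log2 fold change -0.60 ± 0.13). DOLPP1, which recycles the dolichol carrier, had the same log2 fold change of -0.60 ± 0.08. In both, the lines were apart. POMT1, a protein O-mannosyltransferase that takes mannose from dolichyl phosphate, had 14.5, 14.5 and 16.9 CPM in HCT116oxR libraries, against 13.0, 18.2 and 15.4 CPM in parental libraries (log2 fold change -0.02 ± 0.13). Its HCT116oxR libraries lay inside the parental range.

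The neighbouring torsin ATPases of the nuclear envelope and endoplasmic reticulum were at -0.55 ± 0.09 for TOR1B and -0.25 ± 0.08 for TOR1A, whose lines overlapped in 1 library. The TOR1A call was lost without HCT116oxR replicate 1 or 2 and without parental replicate 1. SURF4, a cargo receptor for export from the endoplasmic reticulum, was at -0.36 ± 0.04, the Golgi matrix protein GOLGA2 at -0.56 ± 0.06 and the palmitoyltransferase ZDHHC12 at -0.58 ± 0.12. All 5 were called lower. CERCAM, a collagen galactosyltransferase relative, was also lower at -0.48 ± 0.08.

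Signalling and trafficking genes included TSC1 (chr9:132891349-132945378), which had 91.8, 85.7 and 85.2 CPM in HCT116oxR libraries, against 143, 137 and 149.7 CPM in parental libraries. Its log2 fold change of -0.71 ± 0.05 was the most negative of the 6 genes beyond 132 Mb, and its lines did not overlap. TBC1D13, a Rab GTPase-activating protein, had 30.5, 27.0 and 26.4 CPM in HCT116oxR libraries, against 44.9, 45.3 and 47.0 CPM in parental libraries (log2 fold change -0.71 ± 0.08). GPR107, a membrane protein of the secretory and endocytic routes, had 146, 138 and 149 CPM in HCT116oxR libraries, against 221, 227 and 219 CPM in parental libraries (log2 fold change -0.62 ± 0.04). Both genes were lower in every HCT116oxR library than in any parental one.

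DNM1, a dynamin best known from synaptic vesicle recycling, had 17.3, 18.1 and 13.8 CPM in HCT116oxR libraries, against 34.2, 29.9 and 31.2 CPM in parental libraries (log2 fold change -0.95 ± 0.11). The lines were well apart. The start of DNM1 overlaps that of CIZ1 on the other strand, so the reads there may be shared. FNBP1, an F-BAR protein of endocytosis, was lower at -0.26 ± 0.06, and SH3GLB2, an endophilin relative, at -0.46 ± 0.05. The tyrosine kinase ABL1 was lower at -0.55 ± 0.11 and RAPGEF1, the RAP1 exchange factor C3G, at -0.19 ± 0.05.

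NCS1, a calcium sensor, was the other gene called higher. It had 177, 187 and 182 CPM in HCT116oxR libraries, against 173, 165 and 167 CPM in parental libraries (log2 fold change 0.11 ± 0.04). The lines did not overlap, but the gap was small and the call was lost in 5 of 11 other settings: with no filter, without HCT116oxR replicate 2 or 3 and without parental replicate 2 or 3. PKN3, a kinase related to protein kinase C, at 0.05 ± 0.06 and AIF1L, an actin-bundling relative of AIF1, at 0.06 ± 0.06 were not called.

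**Figure D2:**
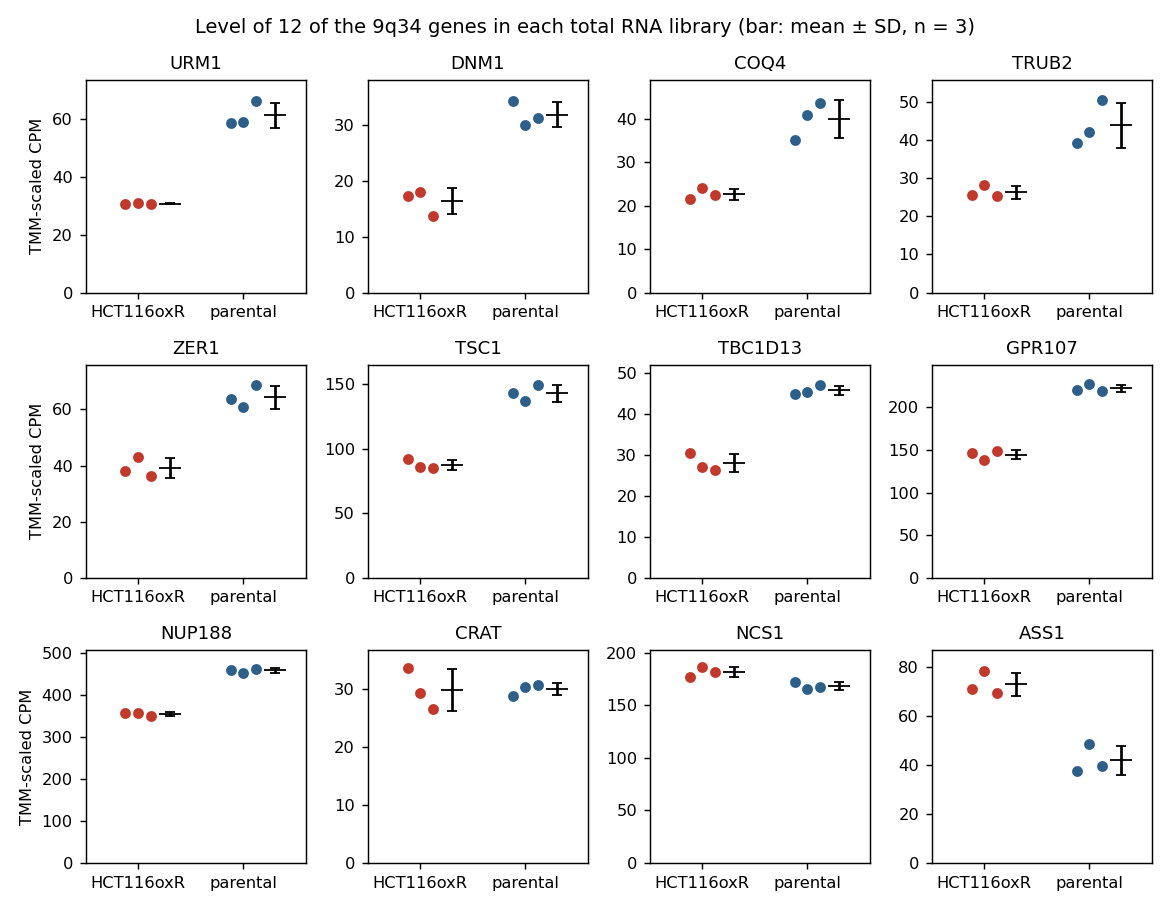
TMM-scaled CPM of 12 of the 9q34 genes in each total RNA library, HCT116oxR in red at the left and parental in blue at the right, with mean ± SD over 3 libraries in black. The lines are apart in all panels but CRAT, and only NCS1 and ASS1 are higher in HCT116oxR.

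The remaining genes act in protein turnover, the cytoskeleton, cilia or other roles. ZER1, a substrate receptor of a cullin 2 ubiquitin ligase, had 38.1, 43.0 and 36.2 CPM in HCT116oxR libraries, against 63.7, 60.7 and 68.6 CPM in parental libraries (log2 fold change -0.72 ± 0.07). SPTAN1, the non-erythroid alpha spectrin, had 271, 277 and 272 CPM in HCT116oxR libraries, against 332, 334 and 325 CPM in parental libraries (log2 fold change -0.27 ± 0.04). In neither did the lines overlap. ASB6, an ankyrin and SOCS box protein, was at -0.45 ± 0.08, the deubiquitinase USP20 at -0.34 ± 0.12, the dynein-2 chain WDR34 at -0.35 ± 0.05 and CIZ1, a nuclear matrix protein of DNA replication, at -0.47 ± 0.05. The USP20 call was lost without parental replicate 1 or 3.

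C9orf78 was also called lower at -0.26 ± 0.09, a call lost without HCT116oxR replicate 3 or parental replicate 3, while the centriole and sperm tail protein ODF2 at -0.11 ± 0.05 was not called. IER5L had 72.4, 84.0 and 67.4 CPM in HCT116oxR libraries, against 74.9, 70.5 and 82.6 CPM in parental libraries (log2 fold change -0.03 ± 0.06). FAM78A had 13.9, 13.1 and 8.96 CPM in HCT116oxR libraries, against 12.3, 9.76 and 13.7 CPM in parental libraries (log2 fold change 0.01 ± 0.15). The libraries of the lines were interleaved in both.

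Several of the genes start back to back. The starts of DDX31 and GTF3C4 lie 52 bases apart, and their log2 fold changes were -0.54 and -0.52. DOLK and NUP188 start 96 bases apart with -0.60 and -0.37, and FNBP1 and GPR107 start 27 bases apart with -0.26 and -0.62. C9orf78 and USP20 start 183 bases apart with -0.26 and -0.34. In these 4 pairs, whose starts do not overlap, both genes were called lower, at values that were close in some pairs and not in others, and the windows printed above for GTF3C4, NUP188 and GPR107 take in the facing start. In 2 more pairs the genes overlap at their starts: CIZ1 and DNM1, with -0.47 and -0.95, and GOLGA2 and SWI5, with -0.56 and -0.33, of which SWI5 was not called.

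In the 45 promoter windows the median GC content was 70.3% (range 38.3 to 83%), against a median of 65.3% over 10322 tested protein-coding genes. GGGCGG on either strand was present in 35 of the 45 (77.8%), against 44.6% of all 27305 promoters and 70.5% of those of tested protein-coding genes. CCGGAAG was present in 16 (35.6%, against 10.7% and 19.3%), AAGATGGC in 7 (15.6%, against 3.03% and 5.37%) and CCAAT in 18 (40%, against 35.7% and 36.8%). TATAAA, the TATA box, was in 2 (4.44%, against 12% and 5.85%). In the windows shown, GTF3C4 holds adjoining GC box and ETS matches, NUP188 holds 2 matches to the YY1 core and 4 to the GC box, GPR107 holds one match each to CCAAT, the ETS core and the GC box, and ASS1 holds 2 GC boxes. Windows of genes that start back to back share bases, as in DOLK and NUP188, so the same site can count for both genes. These are matches of letters and were not tied to the levels.

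The other protein-coding genes of the interval were shifted the same way. Of 47 that are not among the 53, 32 were tested, with a median log2 fold change of -0.33 and a range of -3.05 to 1.11. Of the 32, 20 were called lower (62.5%, against 24.6% of all tested protein-coding genes) and 2 higher (6.25%, against 25.5%). The interval was picked on lower levels in these same libraries, so these values are a description. LCN2, a siderophore-binding lipocalin, had the most negative value, with 0.52, 0.82 and 0.33 CPM in HCT116oxR libraries, against 3.92, 4.46 and 5.75 CPM in parental libraries (log2 fold change -3.05 ± 0.36). LRRC8A, the obligate subunit of the volume-regulated anion channel, was at -0.55 ± 0.07. LAMC3, a laminin chain, was not called at 0.09 ± 0.10. The 2 called higher were FIBCD1 (1.11 ± 0.12), a chitin-binding receptor, and RPL7A (0.16 ± 0.04), a ribosomal protein with many pseudogenes. These 2 are named because of their values.

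Of 30 lncRNA genes of the interval in the table, 8 were tested. Of these, 3 were called lower (37.5%, against 21.8% of all genes tested) and none higher (against 22.3%). SLC25A25-AS1 had 15.3, 13.0 and 13.9 CPM in HCT116oxR libraries, against 24.1, 26.3 and 28.1 CPM in parental libraries (log2 fold change -0.89 ± 0.11). LINC00963 had 23.1, 31.6 and 24.2 CPM in HCT116oxR libraries, against 37.9, 32.6 and 43.5 CPM in parental libraries (log2 fold change -0.53 ± 0.10). The lines did not overlap in either, although 1 HCT116oxR library of LINC00963 came close to the lowest parental one. The remaining lncRNA called lower, named because of its value, was LOC105376286 (-1.60 ± 0.49). LOC100506100 (0.15 ± 0.22), LINC01503 (-0.48 ± 0.27), LOC101929314 (0.00 ± 0.39) and DBH-AS1 (0.10 ± 0.45) were not called.

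At the edges of the interval the values were mixed in size. The first and the last of the 53 along the chromosome were CIZ1 (log2 fold change -0.47) and SURF4 (-0.36). The tested genes nearest to the limits on the inside are not among the 53. At the start they were NAIF1 (0.28 ± 0.15), SLC25A25 (-0.18 ± 0.08) and PTGES2 (-0.40 ± 0.05). At the end they were SLC2A6 (-0.11 ± 0.13), SARDH (-0.04 ± 0.37) and VAV2 (-0.27 ± 0.05). Of these, which are named for their position after their values were seen, PTGES2 and VAV2 were called lower and the others were not called. Outside, on the centromere side, FAM102A was at -0.21 ± 0.07, DPM2 at -0.74 ± 0.09 and PIP5KL1 at -0.20 ± 0.11, which was not called. On the telomere side, LINC00094 (the gene that RefSeq calls BRD3OS) was at -0.57 ± 0.09, BRD3 at -0.20 ± 0.06 and WDR5 at -0.56 ± 0.05. The other 5 genes outside were called lower.

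Along chromosome 9 the lower levels began on the long arm. The 125 tested protein-coding genes below 45 Mb had a median log2 fold change of 0.00, with 25 called lower (20%) and 23 higher (18.4%). The 12 from 60 to 70 Mb had a median of 0.01. The 225 genes from 70 to 128 Mb had a median of -0.28, with 124 called lower (55.1%) and 20 higher (8.89%). The 69 genes from 134 Mb on had a median of -0.34, with 41 called lower (59.4%) and 3 higher (4.35%). Off chromosome 9 the median of 12106 protein-coding genes was 0.01, with 23.6% called lower and 26.1% higher. These values come from the contrast that chose the interval and are a description.

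Among 227 windows of 5 Mb with at least 20 tested protein-coding genes across the genome, those at 125 to 130 Mb (median -0.37) and 130 to 135 Mb (median -0.35) of chromosome 9 were among the lowest. The ranking uses the contrast that chose the interval, so the place of these windows is a description. The windows with lower medians were 175 to 180 Mb of chromosome 2 (-1.20), the window from 50 Mb of chromosome 22 (-1.17) and 0 to 5 Mb of chromosome 17 (-0.47). By chromosome, the median was -0.21 for chromosome 9, -0.06 for chromosome 19, the next lowest, and 0.30 for chromosome 8, the highest.

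**Figure D3:**
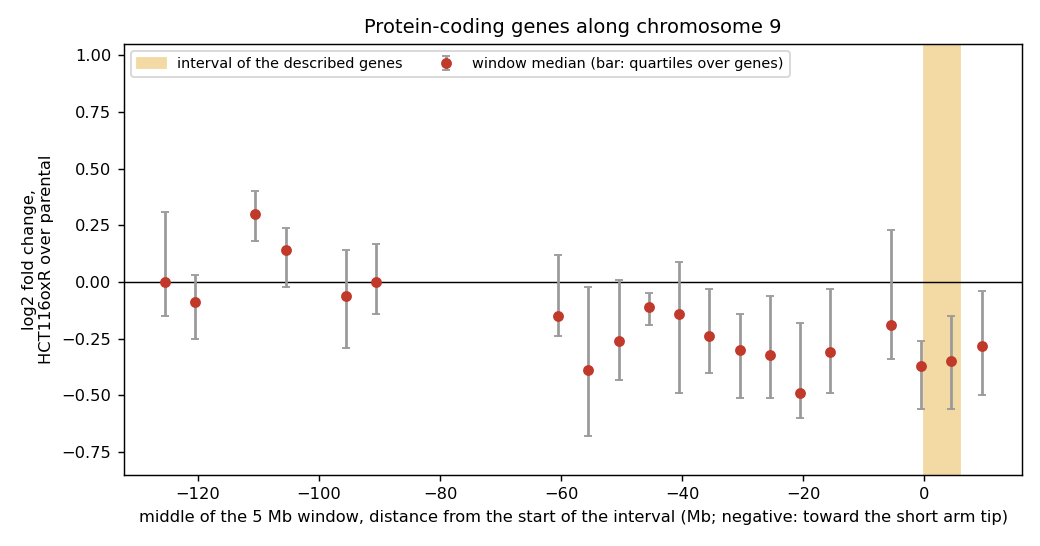
Median log2 fold change of HCT116oxR over parental HCT116 (points) with quartiles over genes (bars) for tested protein-coding genes in 5 Mb windows of chromosome 9, by distance from the start of the interval (shaded). Of the windows drawn, those with at least 5 tested genes, medians lie between -0.15 and 0.30 left of -60 Mb and below 0 from -55.5 Mb onward.

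The miRNAs of the interval come from separate small RNA libraries that did not choose the genes. Of 14 mature forms in the table, 7 passed the filter on low counts. None was called lower and 1 was called higher by edgeR's quasi-likelihood test at an adjusted p under 0.05 over 975 miRNAs. Over all miRNAs tested, 21.2% were called lower and 23.5% higher. At an unadjusted p under 0.05 the count of lower miRNAs was also 0, and DESeq2 called 0 lower and 1 higher.

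The one called higher was miR-199b-5p, cut from a hairpin at chr9:128244721-128244830 that lies inside DNM1 on the other strand. It had 129.6, 122 and 136 CPM in HCT116oxR libraries, against 104, 110.1 and 96.2 CPM in parental libraries. All 3 HCT116oxR libraries were above all 3 parental ones, a pattern seen in 28.5% of all miRNAs tested. The log2 fold change was 0.32 ± 0.08 (edgeR quasi-likelihood test, Benjamini-Hochberg adjusted p = 0.00428 over all miRNAs). Over 12 alternative settings its log2 fold change was 0.23 to 0.39 and its edgeR or DESeq2 adjusted p 0.000549 to 0.0469. DNM1, on the opposite strand of the hairpin, had its log2 fold change of -0.95 in the total RNA libraries, and the difference between the 2 was not tested, since they come from different kinds of library.

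The other arm of that hairpin cannot be told from miR-199a-3p, whose sequence is the same. MiR-199b-3p had 20.4, 18.6 and 16.6 CPM in HCT116oxR libraries, against 19.98, 16.7 and 18.0 CPM in parental libraries (log2 fold change 0.02 ± 0.12, edgeR adjusted p = 0.903). The lines overlapped. The split of identical reads between both names carries no information on either hairpin. The sum of both names had a log2 fold change of 0.02 ± 0.09 (edgeR adjusted p = 0.855). MiR-199a-5p, from chromosomes 1 and 19, was at 0.09 ± 0.24 and is printed above.

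The miR-219 hairpins lie just beyond the end of URM1, at chr9:128392618-128392714. MiR-219a-5p, also made from a hairpin on chromosome 6, had 10.9, 11.2 and 10.2 CPM in HCT116oxR libraries, against 11.4, 9.69 and 7.93 CPM in parental libraries (log2 fold change 0.16 ± 0.15, edgeR adjusted p = 0.435). The 3 others had 7 to 29 counts in each library. Their log2 fold changes were -0.15 ± 0.37 for miR-219a-2-3p (edgeR adjusted p = 0.787), 0.41 ± 0.38 for miR-219b-5p (0.413) and -0.15 ± 0.47 for miR-219b-3p (0.837). At such counts a difference the size of the 9q34 median, -0.45, was not detectable. MiR-6877-5p, from a hairpin inside GTF3C5, was at -0.42 ± 0.30 (edgeR adjusted p = 0.28) with overlapping lines.

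**Figure D4:**
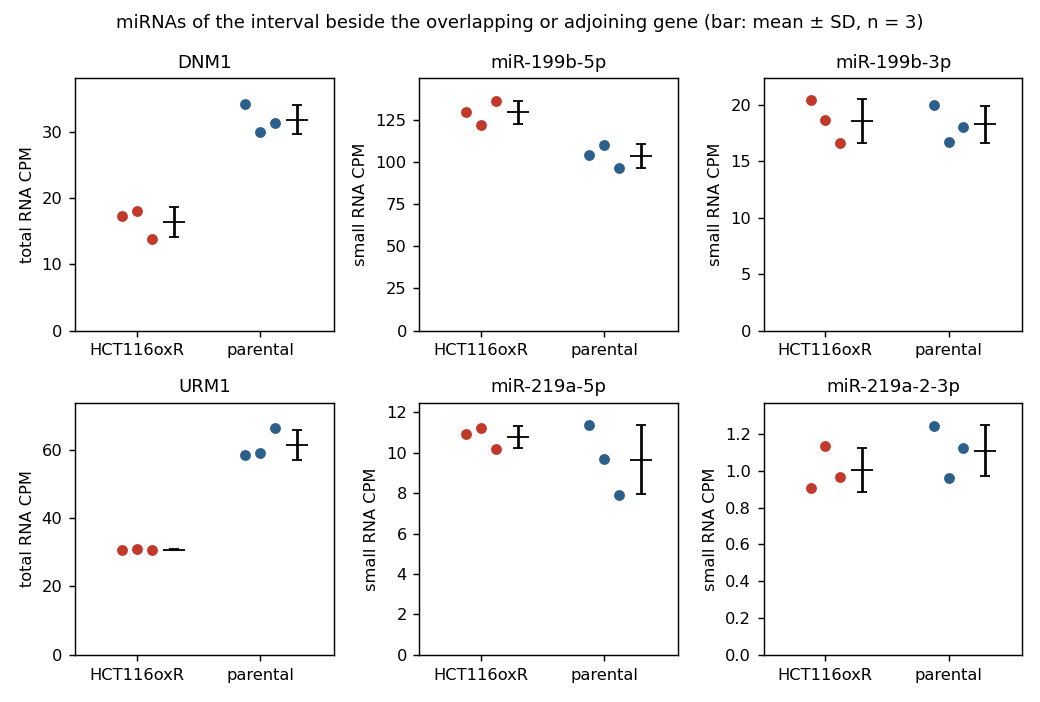
TMM-scaled CPM in each library of DNM1 and URM1 (total RNA) and of 4 mature miRNAs from hairpins within or beside them (small RNA), HCT116oxR in red at the left and parental in blue at the right, with mean ± SD over 3 libraries in black. DNM1 and URM1 are lower in all HCT116oxR libraries, miR-199b-5p is higher in all 3, and the other miRNAs overlap.

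Genes that work with the 9q34 genes but lie outside the interval were taken from 15 lists by process. Of 196 such genes, 188 were tested, and 47 fell and 26 rose at an edgeR adjusted p under 0.05. The shares were 25% lower and 13.8% higher, against 24.6% and 25.5% of all tested protein-coding genes. The median log2 fold change of the partners was -0.07. Of the 181 tested that are not on chromosome 9, 43 fell (23.8%) and 26 rose, with a median of -0.05, and off chromosome 9 23.6% of tested protein-coding genes were called lower. These medians lie far nearer to the -0.00 of all genes than to the -0.45 of the 9q34 genes. The 9q34 genes were chosen on this contrast, and their difference from their partners was not tested.

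Among nuclear pore and mRNA export genes, beside NUP188, NUP214 and GLE1, 8 of 28 fell (28.6%) and 6 rose (21.4%), with a median of -0.02. Of all tested protein-coding genes, 24.6% were called lower and 25.5% higher. NUP35, a scaffold nucleoporin encoded on chromosome 2, fell to 50.2 ± 3.42 CPM in HCT116oxR, against 168 ± 2.22 CPM in parental cells (log2 fold change -1.75 ± 0.05, edgeR adjusted p = 5.76e-59). NUP210, a membrane nucleoporin, rose (0.37 ± 0.03, adjusted p = 7.46e-18). Among genes of dolichol, N-glycan precursor and O-mannose synthesis, 11 of 28 fell (39.3%) and 3 rose (10.7%), with a median of -0.16. ALG12, a mannosyltransferase encoded on chromosome 22, fell (-1.50 ± 0.08, adjusted p = 4.51e-31), as did DPM2, a subunit of dolichyl phosphate mannose synthase encoded just outside the interval.

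In the RNA exosome 2 of 14 fell, among them the nuclease DIS3 (-0.18 ± 0.04, edgeR adjusted p = 3.91e-04), and 1 rose, MPHOSPH6 (0.27 ± 0.07, adjusted p = 1.19e-03), with a median of 0.01. Of the 9 other RNA polymerase III factors none fell and 1, GTF3C3, a TFIIIC subunit, rose (0.12 ± 0.05, adjusted p = 3.94e-02), with a median of -0.07. In Mediator 5 of 28 fell and 4 rose (median -0.03), and MED30, encoded on chromosome 8, rose (0.83 ± 0.19, adjusted p = 1.02e-04), as did MED1 (0.15 ± 0.04, adjusted p = 9.78e-04). The shares over all tested protein-coding genes were 24.6% lower and 25.5% higher.

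Coenzyme Q synthesis genes other than COQ4 had 3 of 12 lower (25%) and none higher (median -0.08), against 24.6% and 25.5% of all tested protein-coding genes. COQ7, the hydroxylase that acts late in the pathway, fell (-0.39 ± 0.08, edgeR adjusted p = 4.33e-05), and COQ2, which attaches the isoprenoid tail, fell (-0.59 ± 0.21, adjusted p = 1.40e-02). Of 20 cytochrome c oxidase assembly genes, 4 fell (20%) and 2 rose (10%), with a median of -0.07. The copper chaperone SCO2, encoded on chromosome 22, fell (-0.86 ± 0.15, adjusted p = 5.53e-07), as did COA1 (-0.27 ± 0.04, adjusted p = 1.65e-08).

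Of 8 genes of the TSC complex and mTORC1 beside TSC1, 2 fell (25%) and none rose (median -0.09). The shares of all tested protein-coding genes were 24.6% and 25.5%. AKT1S1, an inhibitory mTORC1 subunit, fell (-0.99 ± 0.07, edgeR adjusted p = 5.40e-25), and the kinase MTOR fell (-0.15 ± 0.05, adjusted p = 9.55e-03). Among 7 genes of ABL and CRK-C3G-RAP1 signalling, 3 fell (42.9%) and 1 rose (14.3%), with a median of -0.18. The adaptor CRK, encoded on chromosome 17, fell (-0.56 ± 0.05, adjusted p = 2.07e-21), as did the docking protein BCAR1 (-0.39 ± 0.06, adjusted p = 5.14e-08).

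In the shorter lists, 2 of 5 torsin genes and cofactors fell (median -0.12), among them TOR1AIP2, an activator of torsins (-0.12 ± 0.03, edgeR adjusted p = 1.65e-03), and TOR4A, which lies on the long arm of chromosome 9 beyond the interval (-0.25 ± 0.08, adjusted p = 3.31e-03). In the URM1 thiolation pathway 2 of 4 fell (median -0.22). They were MOCS3, which activates URM1 (-0.35 ± 0.13, adjusted p = 1.66e-02), and CTU2, a subunit of the tRNA thiolation enzyme (-0.18 ± 0.08, adjusted p = 4.95e-02). Of 6 dynamins and BAR-domain genes, 2 fell (median -0.16), SH3GL1 (-0.31 ± 0.06, adjusted p = 1.55e-06) and BIN1 (-0.19 ± 0.08, adjusted p = 3.30e-02). None rose in these 3 lists. Over all tested protein-coding genes 24.6% were called lower and 25.5% higher, and nothing is read from counts in lists this short.

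The lists with positive medians were dynein-2, SET and PP2A, and the urea cycle, besides the exosome. In dynein-2, 1 of 7 fell and 3 rose (median 0.15), including its heavy chain DYNC2H1 (0.88 ± 0.13, edgeR adjusted p = 6.94e-09) and the light chain DYNLL2 (0.39 ± 0.06, adjusted p = 2.55e-09). Around SET, 1 of 7 fell and 2 rose (median 0.02), with ANP32E, a histone chaperone, at 0.29 ± 0.04 (adjusted p = 9.45e-11) and the PP2A scaffold PPP2R1B at 0.23 ± 0.06 (adjusted p = 9.72e-04). In the urea cycle, where ASS1 acts, 1 of 5 fell (20%) and 3 rose (60%), with a median of 0.39, while OTC and ARG1 had too few reads to be tested. The shares over all tested protein-coding genes were 24.6% and 25.5%, and with so few genes nothing is read from the counts of these lists. The gene that fell, named because of its value, was ASL (-0.20 ± 0.08, edgeR adjusted p = 3.78e-02). CPS1, the entry enzyme of the cycle, rose to 54.6 ± 1.97 CPM in HCT116oxR, against 41.6 ± 3.64 CPM in parental cells (0.39 ± 0.07, adjusted p = 3.37e-06), and the ornithine carrier SLC25A15 rose (0.46 ± 0.11, adjusted p = 2.55e-04).

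**Figure D5:**
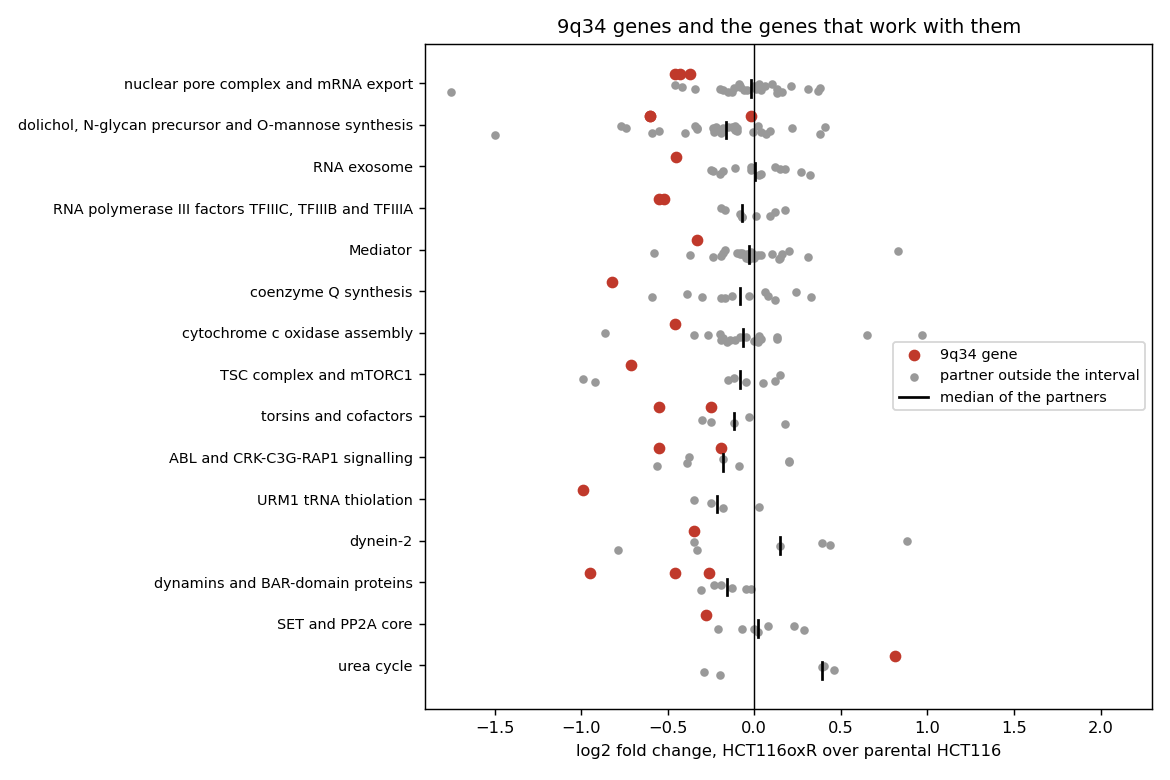
Log2 fold change of HCT116oxR over parental HCT116 for the 9q34 genes (large red points) and for tested genes outside the interval that work in the same process (small grey points, with the list median as a black line). The 9q34 genes lie left of the median of their list except POMT1 and ASS1, with RAPGEF1 (-0.19) next to its list median of -0.18. The 9q34 genes were chosen on this contrast, so their place is a description.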

How the data were processed

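Total RNA and small RNA were each measured in 3 libraries of HCT116oxR and 3 of parental HCT116. The values deposited by the authors are raw counts, per gene and per mature miRNA. Reads were aligned to GRCh38 with HISAT2 (total RNA) or BWA (small RNA) per the submitters' processing notes. No source used here gives tool versions, the counter, the annotation, strand use or how multiply matching reads were treated, and overlapping or duplicated genes may share reads. The 9q34 genes, the partner lists and the interval were chosen with earlier results of these data known.

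The lines were compared with edgeR 4.0.16 in R 4.3.3, for each library kind across all features: filterByExpr (10 counts in a library of median size, 15 in all), TMM factors, and the robust quasi-likelihood F test, 2-sided, with Benjamini-Hochberg adjustment and a threshold of 0.05. The common biological coefficient of variation was 4.77% for genes and 12.4% for miRNAs. On simulated counts the procedure recovered 52 of 67 genes and 51 of 67 miRNAs changed 1.5-fold, and 65 of 67 of each changed 2-fold. The simulated spread was the same for both kinds and below the 12.4% of the miRNAs. The recovery of miRNAs therefore does not carry over to the measured ones. Standard errors are approximate, and CPM are TMM-scaled. Depth was 11950069 counts or more per library, and counts cannot show PCR duplicates.

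Of 54261 genes, 45971 had a RefSeq (GRCh38.p14) symbol, 3686 were found through gene numbers, 1799 through older symbols, and 2805 had no match. Values in each library are given for the 12 of the 9q34 genes with the largest absolute log2 fold change, the 4 nearest 0, the 4 with the highest CPM (not divided by length) and those called higher. Also named are the tested miRNAs of the interval, the 6 lncRNAs with the highest CPM, the 3 nearest genes beyond each end, and in each partner list the 2 called genes with the smallest adjusted p. MED22, a Mediator gene inside the interval, was left out of the partners. Libraries of a line differed beyond counting noise and each counts as 1 replicate. Alternatives were DESeq2 1.42.0 (size factors, Wald test), upper-quartile scaling, no filter, the replicate number as a block, and each library left out.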

Additional observations from a re-analysis of the deposited data

How the results depend on the processing

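The median of the 9q34 genes was -0.45 with DESeq2 size factors, the DESeq2 Wald test, no filter and the replicate block, and -0.43 with upper-quartile scaling. It was -0.46 to -0.41 with 1 library left out, with -0.41 without parental replicate 3. The number called lower was 38 in each of those 5 settings and 36 to 39 with 1 library left out. The number called higher was 1 with no filter and 1 to 2 with 1 library left out. It was 1 without HCT116oxR replicate 2 or 3 and without parental replicate 2 or 3, NCS1 being lost. Genes that overlap no other gene gave 17 lower and 1 higher, since fewer genes were counted. Of 40 calls, 36 held in all 11 settings. The others, TOR1A, C9orf78, USP20 and NCS1, were lost in 2 to 5 of them, and SWI5 (without HCT116oxR replicate 3 or parental replicate 1), ODF2 (without parental replicate 1), PTGES (without replicate 1 of either line) and NUP214 (without parental replicate 2) were called. No call changed its direction.

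Partner genes gave 47 lower and 26 higher, 41 and 32 with upper-quartile scaling, 40 and 23 with the DESeq2 Wald test, 44 and 24 with no filter, and 39 to 44 and 19 to 25 with 1 library left out. The miRNAs of the interval gave 0 lower and 1 higher in every setting, also with 1 library left out and with the names of miR-199-3p summed, an alternative chosen after seeing the data, as was leaving out partners on chromosome 9. MiR-199b-3p turned to -0.07 with upper-quartile scaling, -0.03 without HCT116oxR replicate 1 and -0.01 without parental replicate 2 (-0.03 to 0.12 with 1 library left out), and miR-219b-3p to 0.24 without parental replicate 2 (-0.45 to 0.24 with 1 library left out). None of these 4 passed the threshold.

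Replicate numbers did not pair the libraries. Deviations of same-numbered libraries correlated at 0.027, -0.061 and -0.043 over genes and 0.222, 0.049 and -0.14 over miRNAs. With the replicate number as a block, the calls were 38 lower and 2 higher for the 9q34 genes, 46 and 26 for partners, and 0 and 1 for miRNAs. Depth limits SLC27A4, NUP214, miR-219a-2-3p, both miR-219b forms and miR-6877-5p, whose standard errors exceeded 0.2 on the log2 scale.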

Other observations

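Over the long arm of chromosome 9 from 70 Mb, 31 miRNAs whose hairpins all lie there were tested, a set chosen after seeing the data. Of these 6 were called lower and 6 higher by edgeR at an adjusted p under 0.05 (19.4% each, against 21.2% lower and 23.5% higher over all miRNAs tested), with a median log2 fold change of -0.15 and a range of -1.19 to 2.51. Over all 975 miRNAs tested the median was 0.01. For 9 of the 31 every HCT116oxR library lay below every parental library and for 8 every one lay above, against 26.7% and 28.5% of all miRNAs tested.

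Of the 20 tested non-coding genes of the interval, 3 were called lower (15%, against 21.8% of all genes tested) and 2 higher (10%, against 22.3%), with a median log2 fold change of -0.21. The 2 called higher, EEF1A1P5 (0.21 ± 0.03), a pseudogene of an abundant translation factor, and the snoRNA SNORD141A (0.33 ± 0.14), lie on the same stretch and are named because of their values. EEF1A1P5 had 488 ± 9.47 CPM in HCT116oxR and 423 ± 21.3 CPM in parental cells (SD, n = 3), and its reads may be shared with the parent gene. The other snoRNAs of the interval, in RPL7A and PRRC2B, were not called, with log2 fold changes between -0.60 and 0.41.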
